A study of Mus musculus with 40 samples.

Results

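Immune checkpoints are pairs of surface receptors and ligands that restrain or license immune cells, and 10 of their genes were described here in mouse cortex. They were taken by name from the count table. The names had been chosen by the values of these libraries, their differences between genotypes and cohorts, so those differences are given as a description. The set holds 4632428N05Rik (the gene of VISTA, now named Vsir), Havcr2 (TIM-3), Lag3 (LAG-3), Cd274 (PD-L1), Cd80 (B7-1), Cd86 (B7-2), Cd200 and its receptor gene Cd200r1, and Cd47 and its receptor gene Sirpa (SIRPα). These are 10 of the 43346 genes in the table, and all 10 had at least 10 counts in each of the 40 libraries and belong to the 21253 genes that were tested.

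The 40 libraries were poly-A RNA-seq of the cortex of single mice in 4 groups of 10, each with 5 females and 5 males. The non-amyloid cohort was 6 months old and carried either wild-type Trem2 (WT, +/+) or the H157Y missense change knocked into both copies of Trem2 (Hom, H157Y/H157Y). The amyloid cohort held the same 2 genotypes at 8.5 months on a hemizygous 5xFAD background, so that its WT mice also carried the 5xFAD transgenes. 5xFAD mice express their transgenes, mutant human APP among them, from the neuronal Thy1 promoter and deposit amyloid-β. The knock-in was made by CRISPR in B6/CBA zygotes, every cell carries it, and the mice of the study descended from founder 1 unless stated otherwise, which limits the Hom groups as a model to that line. Age and transgenes differed together between the cohorts and cannot be told apart.

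In the brain several of these proteins sit on microglia, the resident macrophages. VISTA, TIM-3, LAG-3 and PD-L1 are known as brakes on T cells, and B7-1 and B7-2 are the ligands through which antigen-presenting cells engage CD28 and CTLA-4 on T cells. CD200 and CD47 work in the other direction: neurons display them, and CD200R1 and SIRPα on myeloid cells read them as signals to stay quiet. SIRPα is also abundant on neurons.

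The members lie on 6 chromosomes of mm10 and are all protein coding. 4632428N05Rik (ENSMUSG00000020101, chr10:60346851-60372684) lies within Cdh23, a gene on the opposite strand, with no shared exonic base. Havcr2 (ENSMUSG00000020399) is at chr11:46454935-46481255, Lag3 (ENSMUSG00000030124) at chr6:124904361-124911705 and Cd274 (ENSMUSG00000016496) at chr19:29367455-29388095. An antisense gene shares 511 of the 3622 exonic bases of Cd274 and is not among the counted genes, so reads of the 2 strands may not be separated there. Chromosome 16 holds 5 members, Cd86 (ENSMUSG00000022901, chr16:36603869-36666081), Cd80 (ENSMUSG00000075122, chr16:38458933-38486933), Cd200r1 (ENSMUSG00000022667, chr16:44765736-44794978), Cd200 (ENSMUSG00000022661, chr16:45382135-45409053) and Cd47 (ENSMUSG00000055447, chr16:49855618-49915010). Sirpa (ENSMUSG00000037902) is at chr2:129592835-129632228. Cd200r1 and Sirpa have close paralogs, and reads from matching stretches may be split between copies.

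Because several members moved together between the cohorts, the 250 bases before their start sites were read from RefSeq (GRCm38.p6), which listed a promoter for 6 of the 10 members. 3 of them are shown, 5′ to 3′, for VISTA and for the 2 members in which a searched motif was found. They are chr10:60346601-60346850 for 4632428N05Rik, chr11:46454681-46454930 for Havcr2 and chr16:38458683-38458932 for Cd80, all on the plus strand, with motif matches in capitals.
4632428N05Rik: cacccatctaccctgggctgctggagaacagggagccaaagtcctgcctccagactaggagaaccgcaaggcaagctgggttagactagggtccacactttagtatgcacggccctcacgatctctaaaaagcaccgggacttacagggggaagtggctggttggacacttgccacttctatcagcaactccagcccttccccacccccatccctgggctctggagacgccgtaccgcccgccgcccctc
Havcr2: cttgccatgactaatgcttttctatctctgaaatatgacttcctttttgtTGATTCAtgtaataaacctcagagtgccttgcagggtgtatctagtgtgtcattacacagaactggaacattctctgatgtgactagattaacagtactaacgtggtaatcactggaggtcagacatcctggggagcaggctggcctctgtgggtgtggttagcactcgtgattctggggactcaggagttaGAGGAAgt
Cd80: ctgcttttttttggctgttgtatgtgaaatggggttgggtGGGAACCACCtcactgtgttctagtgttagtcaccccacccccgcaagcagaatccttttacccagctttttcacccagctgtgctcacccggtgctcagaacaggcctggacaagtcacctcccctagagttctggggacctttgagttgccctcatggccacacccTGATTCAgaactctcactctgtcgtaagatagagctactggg
Both strands were searched for GAGGAA (the core read by PU.1 and other ETS factors), TTCNNNGAA (GAS, the interferon-γ activated site), the core of the interferon-stimulated response element, the NF-κB motif and TGANTCA (AP-1), where N is any base. The Havcr2 window held GAGGAA starting 8 bases before the start site and TGATTCA 200 bases before it. The Cd80 window held GGGAACCACC 210 bases and TGATTCA 42 bases before the start. No searched motif was found in the windows of 4632428N05Rik, Cd274, Cd200 and Cd47. Of all 32851 windows of this length, 23.3% held GAGGAA, 17.6% the NF-κB form, 7.0% GAS, 6.7% the AP-1 form and 3.0% the interferon core. These matches describe letters only.

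The libraries held 41646271 to 105903846 counts, with a median of 77193387, and a member had between 21 counts (Cd80) and 53852 counts (Sirpa) in a library. One library stood apart: in amyloid Hom replicate 19, the shallowest, 0.652% of counts (Wilson 95% interval for counting error, 0.650% to 0.655%) fell on 588 genes lying opposite a higher gene, against 0.0164% to 0.0213% in the other 39 libraries. Results are given with it, and without it where that changed a call. Trem2, the edited gene, was present in every group, at 7.69 to 15.2 CPM (counts scaled to a common library size with TMM factors) in non-amyloid WT, 7.52 to 12.7 in non-amyloid Hom, 30.2 to 111 in amyloid WT and 17.3 to 49.1 in amyloid Hom. Gene counts do not show the edited base, so these levels do not test the genotype labels.

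Expression separated the members into an abundant and a scarce set. Per kilobase of exon, the 3 partners of the neuron-to-microglia axes led in all 4 groups. In non-amyloid WT mice Sirpa had 90.5 ± 6.0 CPM per kilobase (SD, n = 10), Cd200 42.5 ± 4.4 and Cd47 35.3 ± 4.4. VISTA was the next, at 4.66 ± 0.59, and was above every remaining member in each of these 10 mice. Lag3 followed at 1.96 ± 0.49, Havcr2 at 1.54 ± 0.27, Cd274 at 0.734 ± 0.158, Cd86 at 0.590 ± 0.110, Cd200r1 at 0.438 ± 0.114 and Cd80 at 0.274 ± 0.064. Lag3 exceeded Havcr2 in 7 of the 10 mice, a gap within their spread, whereas Havcr2 exceeded Cd274 in all 10. In amyloid WT mice VISTA reached 11.9 ± 2.9 and Lag3 10.3 ± 4.2 CPM per kilobase, with VISTA the higher in 8 of 10. Lag3 thus sat close to VISTA there, and Cd86 (2.12 ± 0.56) and Cd274 (2.05 ± 1.31) had changed places within their spread.

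**Figure D1:**
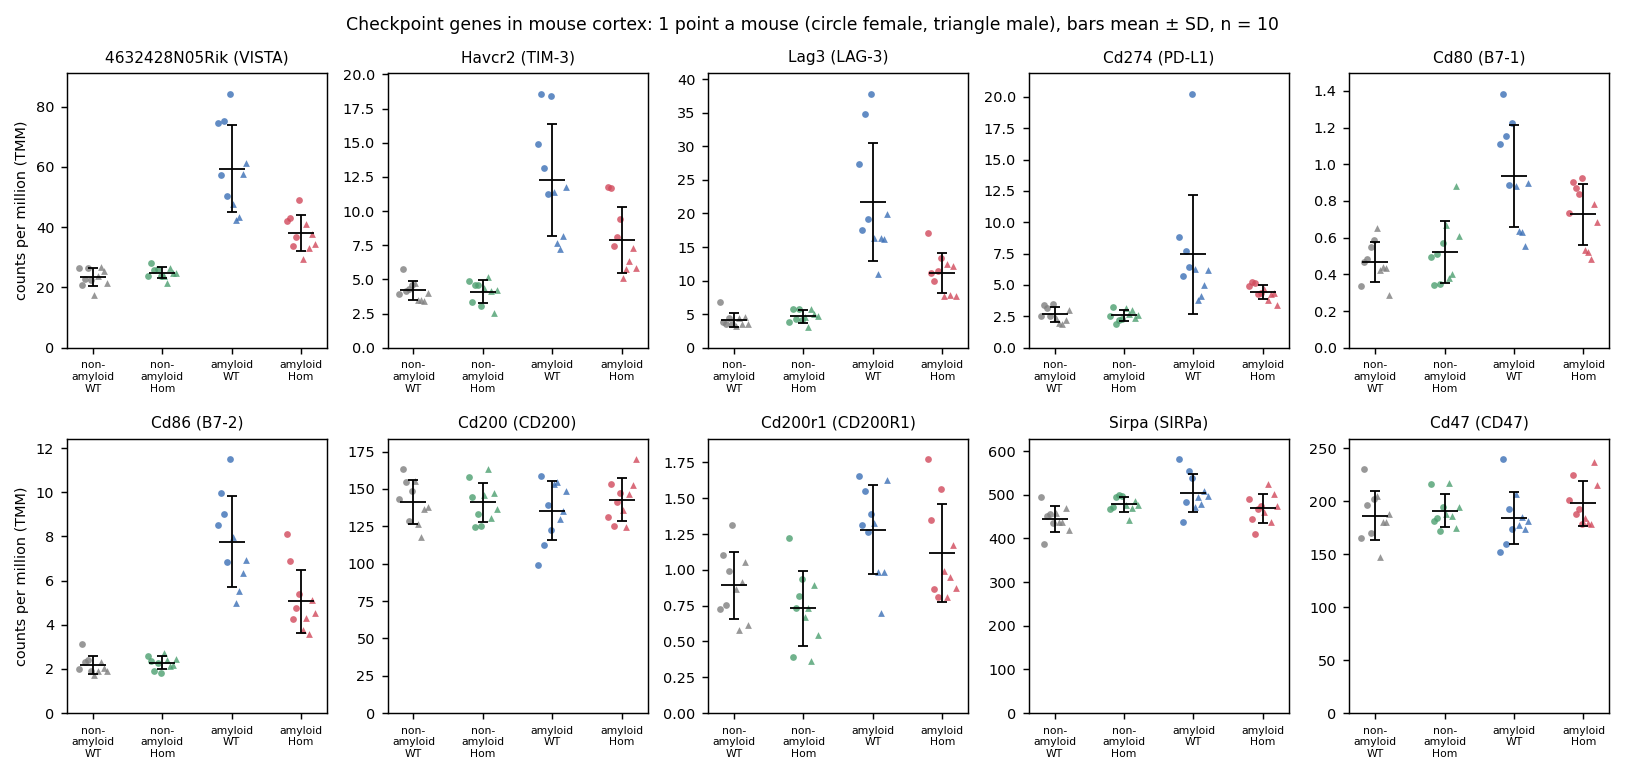
TMM-normalised CPM (y axis, from 0) of the 10 genes in each of the 40 mice by group (x axis); circles are females, triangles males, and bars give mean ± SD (n = 10). VISTA lay at 17.4 to 28.1 CPM in all 20 non-amyloid mice, 42.4 to 84.3 in amyloid WT and 29.5 to 49.1 in amyloid Hom, while Cd200 and Cd47 overlapped in all 4 groups.

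Presence of amyloid pathology, with the greater age that went with it, was accompanied by higher levels of VISTA, TIM-3, LAG-3, PD-L1, B7-1 and B7-2 transcripts in WT mice. In WT, 6 of the 10 members were called higher in the amyloid cohort, against a background of 6.62% of all genes. A gene was called at an adjusted p under 0.05 (edgeR quasi-likelihood test, Benjamini-Hochberg) and an absolute log2 fold change over 0.25. Since the members were chosen with this contrast known, the calls are a description. In Hom mice 6 members were called higher as well, against 5.71% of all genes. The members' median log2 difference was 1.18 in WT and 0.61 in Hom, beside 0.0023 and 0.0274 over all genes tested.

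Among the receptors, VISTA, which acts as both ligand and receptor, ranged from 17.4 to 26.8 CPM (median 23.2) in non-amyloid WT and from 42.4 to 84.3 (median 57.5) in amyloid WT. In Hom it ranged from 21.5 to 28.1 (median 24.8) and from 29.5 to 49.1 (median 37.4). The cohorts did not overlap in either genotype, and the log2 difference was 1.35 ± 0.10 (SE) in WT and 0.61 ± 0.10 in Hom. Lag3, an inhibitory receptor that binds MHC class II, had the largest difference of the members, 2.39 ± 0.18 in WT and 1.25 ± 0.18 in Hom. Its levels were 3.29 to 6.78 CPM (median 3.69) in non-amyloid WT and 10.95 to 37.9 (median 18.3) in amyloid WT. In Hom they were 3.06 to 5.76 (median 4.61) and 7.64 to 17.03 (median 11.3), again without overlap. Havcr2, an inhibitory receptor of T cells and myeloid cells, ranged from 3.43 to 5.77 CPM (median 4.08) in non-amyloid WT and from 7.20 to 18.6 (median 11.6) in amyloid WT. In Hom, the ranges of 2.56 to 5.20 (median 4.28) and 5.14 to 11.8 (median 7.37) met at 1 mouse, and the log2 difference was 0.95 ± 0.16 against 1.55 ± 0.17 in WT.

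The ligands of the B7 family behaved alike in sign and differed in size. Cd86, whose product is the ligand constitutively present on antigen-presenting cells, ranged from 1.71 to 3.11 CPM (median 2.02) in non-amyloid WT and from 4.98 to 11.5 (median 7.47) in amyloid WT, a log2 difference of 1.85 ± 0.14. In Hom it ranged from 1.81 to 2.73 (median 2.31) and from 3.59 to 8.11 (median 4.64), a difference of 1.15 ± 0.14. Neither genotype showed overlap between cohorts. Cd274, the ligand of PD-1, ranged from 1.90 to 3.45 CPM (median 2.53) in non-amyloid WT and from 3.83 to 20.3 (median 6.24) in amyloid WT. In Hom it ranged from 1.88 to 3.24 (median 2.56) and from 3.41 to 5.23 (median 4.36). Its log2 difference was 1.48 ± 0.19 in WT, which became 1.16 ± 0.13 without amyloid WT replicate 32, and 0.78 ± 0.19 in Hom. Cd80, the least abundant member, had medians of 0.453 and 0.895 CPM in the WT cohorts, with 7 of 10 amyloid mice above every non-amyloid mouse and a log2 difference of 1.01 ± 0.18. In Hom its medians were 0.504 and 0.758 CPM, and the difference of 0.48 ± 0.18 was not called (0.60 and called without non-amyloid Hom replicate 23). Counted over all members, the amyloid group lay wholly above the non-amyloid group for 5 of 10 in WT (background 1.95% of genes) and 4 of 10 in Hom (background 0.875%).

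Of the neuron-to-microglia pairs, the ligands and Sirpa differed little between the cohorts, and Cd200r1 was higher in the amyloid cohort. Cd200 ranged from 118 to 164 CPM (median 141) in non-amyloid WT and from 99.3 to 159 (median 137) in amyloid WT, with log2 differences between cohorts of −0.06 ± 0.07 in WT and 0.02 ± 0.07 in Hom. Cd47 ranged from 147 to 230.2 CPM (median 184) in non-amyloid WT and from 152 to 239.8 (median 179) in amyloid WT, with differences of −0.02 ± 0.07 and 0.05 ± 0.07. Neither ligand was called, and the cohorts overlapped over most of their ranges. Sirpa ranged from 386 to 495 CPM (median 444) in non-amyloid WT and from 436 to 582 (median 495) in amyloid WT. The Sirpa difference in WT, 0.18 ± 0.05, passed the adjusted threshold but not the fold threshold, and in Hom it was −0.03 ± 0.05. Cd200r1, the receptor of CD200, had medians of 0.890 and 1.32 CPM in WT and 0.734 and 0.972 CPM in Hom. Its log2 difference was 0.52 ± 0.19 in WT, not called, and 0.61 ± 0.19 in Hom, called. The WT value became a call without amyloid WT replicate 22 (0.59) or non-amyloid WT replicate 38 (0.60). The Hom call was lost without any 1 of 9 libraries (non-amyloid Hom replicates 2, 11, 14, 21 and 35, amyloid Hom replicates 3, 16, 34 and 39), with values of 0.52 to 0.62.

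**Figure D2:**
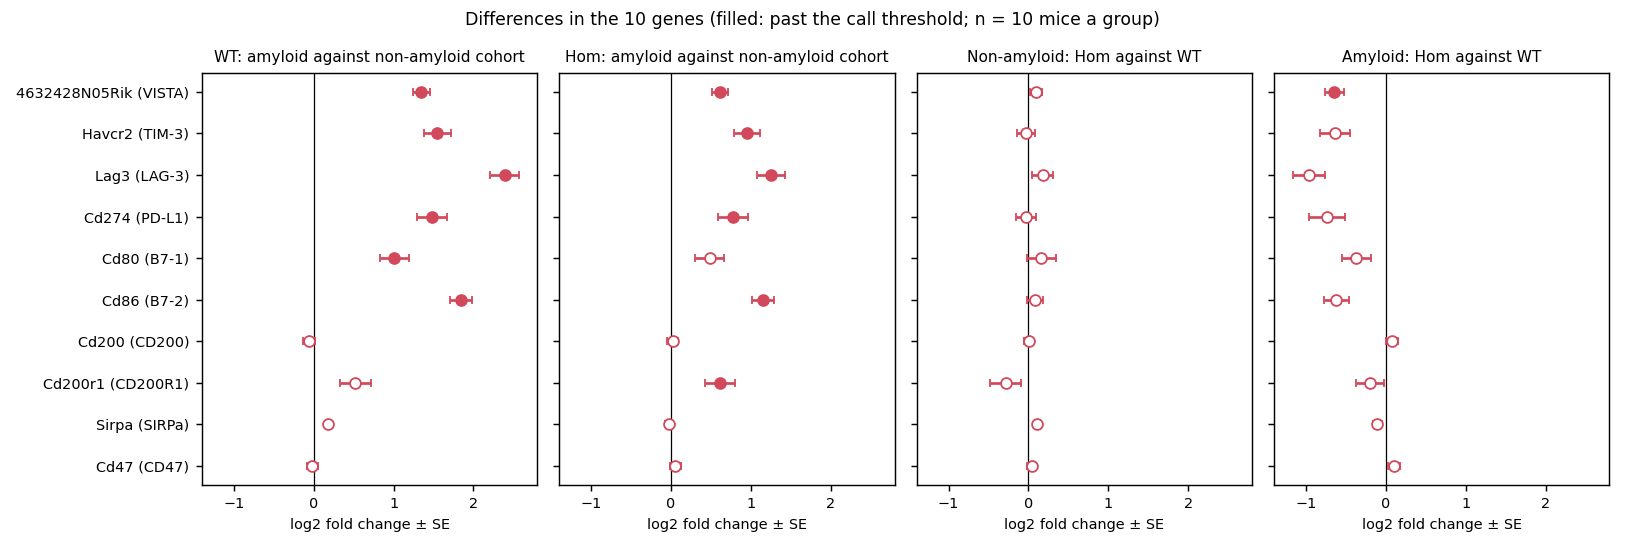
Log2 fold changes (x axis) ± SE of the 10 genes (y axis) in 4 comparisons; filled points passed the call threshold. The 6 upper genes lay between 1.01 and 2.39 in WT for amyloid against non-amyloid, and between −0.97 and −0.37 for Hom against WT in the amyloid cohort, where VISTA alone was called.

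Trem2 H157Y was compared with wild-type Trem2 within each cohort. In the amyloid cohort 8 of the 10 members had a lower mean in Hom than in WT, and VISTA was the 1 member called lower, against 0.0518% of all genes. The members' median log2 difference was −0.49, beside 0.0014 over all genes. In the non-amyloid cohort edgeR called no member (background 0.0329%), and DESeq2 and limma-voom called 0 members. The members' median there was 0.06, and Sirpa stood at 0.11 ± 0.04.

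VISTA ranged from 42.4 to 84.3 CPM (median 57.5) in amyloid WT and from 29.5 to 49.1 (median 37.4) in amyloid Hom. 8 of the 10 Hom mice lay below the lowest WT mouse, and 7 WT mice lay above the highest Hom mouse, replicate 34. The log2 difference was −0.64 ± 0.12, a Hom level 0.641 times that of WT. The call held without replicate 3, 9, 13, 22 or 34 and was lost without any 1 of the other 15 amyloid libraries (replicates 5, 8, 10, 12, 16, 19, 25, 26, 27, 30, 32, 33, 36, 39 and 40), and the values over all 20 such fits ran from −0.69 to −0.57. In the non-amyloid cohort the difference was 0.09 ± 0.07.

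The other inhibitory receptors showed the same sign. Lag3 differed most, from 10.95 to 37.9 CPM (median 18.3) in amyloid WT and from 7.64 to 17.03 (median 11.3) in amyloid Hom, a log2 difference of −0.97 ± 0.20 that was not called with all libraries and was called without replicate 3, 9, 13 or 22 (−1.054 to −1.001). No Hom mouse exceeded the WT median of Lag3, and 6 WT mice lay above all Hom mice. Havcr2 had medians of 11.6 CPM in amyloid WT and 7.37 in amyloid Hom and a difference of −0.64 ± 0.19, with 5 WT mice above all Hom mice. Adding sex to the fit gave calls for VISTA, Lag3, Havcr2 and Cd86, 4 members in all, as did DESeq2.

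Of the ligands, Cd274 had medians of 6.24 CPM in amyloid WT and 4.36 in amyloid Hom, and 7 WT mice lay above the highest Hom mouse. Its log2 difference of −0.74 ± 0.23 became −0.43 ± 0.13 without amyloid WT replicate 32. Cd86 had medians of 7.47 and 4.64 CPM and a difference of −0.62 ± 0.16, with 6 Hom mice below the lowest WT mouse. The Cd86 difference was called without replicate 3 (−0.72) or 13 (−0.67). Cd80 had medians of 0.895 and 0.758 CPM and a difference of −0.37 ± 0.18, with 3 Hom mice below every WT mouse and 4 WT mice above every Hom mouse. All 3 ligands overlapped between the genotypes.

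Cd200, Cd47, Sirpa and Cd200r1 differed little between genotypes in the amyloid cohort. The log2 differences were 0.08 ± 0.08 for Cd200, 0.10 ± 0.07 for Cd47, −0.11 ± 0.05 for Sirpa and −0.20 ± 0.18 for Cd200r1, none of them called. Their 95% intervals ran from −0.08 to 0.24, −0.05 to 0.26, −0.22 to 0.0029 and −0.56 to 0.17.

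The test of whether the genotype difference itself differed between cohorts called 0 genes in the whole table with edgeR (0% of genes), 2189 of the 21253 genes had an unadjusted p under 0.05, limma-voom called 0 and DESeq2 called 27. The interaction was −1.14 ± 0.25 on the log2 scale for Lag3, −0.74 ± 0.14 for VISTA, −0.70 ± 0.19 for Cd86, −0.70 ± 0.27 for Cd274, −0.60 ± 0.23 for Havcr2 and −0.52 ± 0.26 for Cd80. For the other 4 members it was smaller in size, −0.21 ± 0.06 for Sirpa and 0.09 ± 0.27 for Cd200r1. It was 0.08 ± 0.10 for Cd200 and 0.07 ± 0.10 for Cd47. Since the members were chosen with genotype and cohort differences known, their interaction values and calls are a description. VISTA and Lag3 were called by DESeq2 and with sex in the fit. VISTA was also called without non-amyloid WT replicate 1, amyloid Hom replicate 3 or 34, or amyloid WT replicate 9, 13 or 22, at −0.78 to −0.75, and Lag3 without replicate 1, 3 or 13, at −1.25 to −1.22. Cd274 stood at −0.39 without replicate 32.

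Microglial markers differed in the same direction as VISTA, Lag3, Havcr2, Cd274, Cd80 and Cd86, between cohorts and between genotypes in the amyloid cohort. Cd200, Cd47 and Sirpa differed little in level. The summed level of 10 markers (Tmem119, P2ry12, Cx3cr1, Csf1r and Fcrls among them) was 356 to 481 CPM in non-amyloid WT, 389 to 460 in non-amyloid Hom, 703 to 1542 in amyloid WT and 561 to 956 in amyloid Hom. All 10 markers were called higher in amyloid WT than in non-amyloid WT (background 6.62% of all genes), and 8 of 10 in Hom (background 5.71%). All 10 had a lower mean in amyloid Hom than in amyloid WT, none of them called. In bulk tissue fewer microglia and less RNA per microglia cannot be told apart. Each member was therefore also set against the mean log2 CPM of these markers in the same mouse, as a description.

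Relative to the markers, the mean of VISTA differed little between the groups. Its log2 ratio was −0.36 ± 0.14 (SD, n = 10) in non-amyloid WT, −0.26 ± 0.08 in non-amyloid Hom, −0.28 ± 0.06 in amyloid WT and −0.37 ± 0.12 in amyloid Hom, so that differences between groups lay between −0.11 and 0.10. Of the 10 amyloid Hom mice, 3 lay below every amyloid WT mouse and 1 above, and 5 lay below every non-amyloid Hom mouse. Havcr2 and Cd274 likewise had differences between amyloid Hom and WT of −0.08 and −0.04. Lag3 did not follow the markers: its ratio was −2.87 ± 0.23 in non-amyloid WT and −1.80 ± 0.23 in amyloid WT, with all 10 amyloid mice above every non-amyloid mouse. In amyloid Hom its ratio was −2.18 ± 0.18, with 6 of 10 mice below every amyloid WT mouse. Cd86 was 0.57 higher against the markers in amyloid than in non-amyloid WT and 0.40 higher in Hom. Cd200r1 was 0.74 lower against them in amyloid WT than in non-amyloid WT, its difference in level (0.52) being smaller than that of the markers (1.25).

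**Figure D3:**
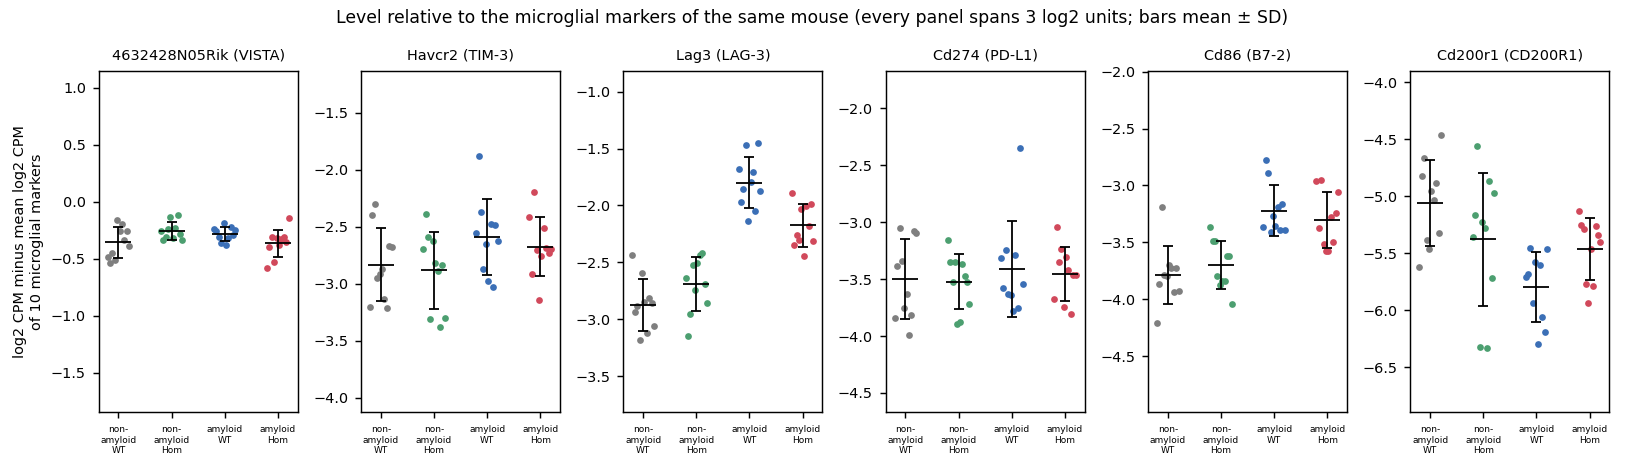
Log2 CPM of 6 members minus the mean log2 CPM of 10 microglial markers in the same mouse (y axis, 3 log2 units in every panel) by group (x axis); points are mice and bars mean ± SD (n = 10). VISTA stayed near −0.3 in all groups, while Lag3 shifted from −2.87 in non-amyloid WT to −1.80 in amyloid WT and −2.18 in amyloid Hom.

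LAG-3, TIM-3 and PD-1 are also made by T cells. The summed level of 10 T cell markers was 14.9 to 26.8 CPM in non-amyloid WT, 10.8 to 48.2 in non-amyloid Hom, 11.4 to 20.2 in amyloid WT and 9.61 to 24.8 in amyloid Hom. Most of it was Cd4, so the sum describes Cd4 rather than the list. None of the 10 was at 0 in all libraries, and 6 were under 10 counts in every non-amyloid library. Cd3e, part of the T cell receptor complex, averaged 0.0155 CPM in non-amyloid WT, 0.103 in amyloid WT and 0.0660 in amyloid Hom, and Cd8a averaged 0.0260, 0.213 and 0.159. Of the 8 T cell markers tested, 4 were called higher in amyloid WT than in non-amyloid WT, Cd3e and Cd8a among them. The 1 called lower was Cd4, and 6.62% of all genes were called higher. A marker under 10 counts in every non-amyloid library could pass the count filter only through the amyloid libraries, so these calls are a description. The summed level of 4 NK cell markers stayed at or below 0.558 CPM in every mouse. It averaged 0.059 CPM in non-amyloid WT, 0.054 in non-amyloid Hom, 0.314 in amyloid WT and 0.177 in amyloid Hom. All 4 were under 10 counts in every non-amyloid library. The 1 tested, Klrb1c, could therefore pass the count filter only through the amyloid libraries. As a description, it was called higher in the amyloid cohort in WT (3.45) and Hom (2.20). It stood at −1.23 in amyloid Hom against WT, not called. The part of these cells in the members' levels was not tested.

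Other genes of the checkpoint and co-stimulatory systems were counted from lists chosen with earlier results known. Of 69 listed genes 51 were tested, and 25 were called higher and 0 lower in amyloid WT than in non-amyloid WT, beside 6.62% of all genes called higher, with a median log2 difference of 0.73. In Hom 18 were called higher and 0 lower, beside 5.71% of all genes called higher, with a median of 0.35. DESeq2 and limma-voom each called 25 of the 51 in WT and 17 in Hom. Some of the 51, Pdcd1 and Tnfsf8 among them, lay near the floor in non-amyloid WT. Such genes may have passed the count filter mainly through the amyloid libraries, so these counts are a description.

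Among the binding partners of the members, 6 of 12 tested were called higher in amyloid WT, beside 6.62% of all genes. Pdcd1, which encodes PD-1, the receptor of PD-L1, averaged 0.140 CPM in non-amyloid WT, near the floor, and 2.48 in amyloid WT. Its log2 difference of 4.14 ± 0.36 is therefore a description. Selplg, which encodes PSGL-1, a partner of VISTA, was higher by 1.02 ± 0.14, Lgals9, whose product galectin-9 binds TIM-3, by 0.98 ± 0.13, and the CD200 receptor family gene Cd200r4 by 2.12 ± 0.28. The SLAM family of leukocyte co-receptors was the list with the highest share of calls, 8 of 9 in WT, led by Cd84 (2.53 ± 0.18), Ly9 (3.67 ± 0.28), Cd48 (2.23 ± 0.20) and Slamf9 (2.36 ± 0.23). Of 7 genes of inhibitory signalling, 3 were called higher, Ptpn6 (SHP-1, 1.91 ± 0.14), Inpp5d (SHIP-1, 1.04 ± 0.09) and Dok1 (1.05 ± 0.16).

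Of the remaining families, 5 of 12 other B7, CD28, TIM, TIGIT and BTLA genes were called higher in amyloid WT, among them the collagen-binding inhibitory receptor gene Lair1 (1.18 ± 0.13) and the co-stimulatory ligand gene Icosl (0.55 ± 0.13). Of 6 tested TNF superfamily genes 1 was called, Tnfsf8, the ligand of CD30, at 0.0486 CPM in non-amyloid WT and 2.28 in amyloid WT. Of the other 5 signals by which neurons quiet microglia, the 2 microglial receptor genes Cx3cr1 (1.19 ± 0.09) and Cd22 (3.52 ± 0.32) were called higher. These counts stand beside 6.62% of all genes called higher in amyloid WT. Only 6 of the 13 listed TNF superfamily genes passed the count filter, and Tnfsf8 lay near the floor in non-amyloid WT, so its call does not describe that list.

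Between genotypes in the amyloid cohort 1 of these 51 genes was called, beside 0.0518% of all genes called lower in Hom: Ptpn6, the phosphatase recruited by inhibitory receptors such as SIRPα, at 12.8 CPM in amyloid WT and 7.06 in amyloid Hom (log2 difference −0.86 ± 0.16). The call was lost without any 1 of 13 libraries (replicates 5, 10, 12, 16, 19, 25, 26, 30, 32, 33, 36, 39 and 40), and the values over all 20 such fits ran from −0.93 to −0.75. Of the 51, 40 had a lower mean in Hom, with a median of −0.37 beside 0.0014 over all genes, and the 9 SLAM genes were all lower, with a median of −0.56. In the non-amyloid cohort edgeR called none of the 51, as did DESeq2 and limma-voom.

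Sex was not used to choose the members, and its effect was tested with genotype in the fit. In the amyloid cohort Havcr2 was higher in females, by 0.70 ± 0.12 on the log2 scale (edgeR adjusted p = 0.00983), and 0.202% of all genes were called higher in females. Amyloid WT females had 11.3 to 18.6 CPM of Havcr2 and males 7.20 to 11.8, and amyloid Hom females had 7.44 to 11.8 and males 5.14 to 7.31. All 5 Hom females and 4 of 5 WT females lay above every male of their genotype. The call held without any 1 of the 20 libraries and was lost only when genotype was left out of the fit (adjusted p = 0.217).

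Cd80, Cd86, Lag3, VISTA and Cd274 also had female means above male means, without passing the edgeR test. The log2 differences were 0.59 ± 0.13 for Cd80 (edgeR adjusted p = 0.0599), 0.50 ± 0.12 for Cd86 (0.0880), 0.59 ± 0.16 for Lag3 (0.115), 0.33 ± 0.10 for VISTA (0.207) and 0.58 ± 0.19 for Cd274 (0.292). Cd274 stood at 0.34 without amyloid WT replicate 32. Cd80 was called without amyloid WT replicate 26 (0.63) or 36 (0.63) or amyloid Hom replicate 39 (0.65), and Cd86 without amyloid Hom replicate 19 (0.54) or amyloid WT replicate 26 (0.54). DESeq2 called Havcr2, Cd80, Cd86 and Lag3, and limma-voom called Havcr2 and Cd80. Cd200r1 (0.38 ± 0.16), Cd200 (−0.13 ± 0.08), Sirpa (0.01 ± 0.05) and Cd47 (−0.01 ± 0.08) were not called by any tool. Of the 10 microglial markers, all had a higher mean in amyloid females, with a median log2 difference of 0.41. Beside 0.202% of all genes called higher, 1 marker was called (Fcrls, 0.58 ± 0.10, a call lost without any 1 of 5 libraries). The part of the markers in the sex difference was not tested.

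**Figure D4:**
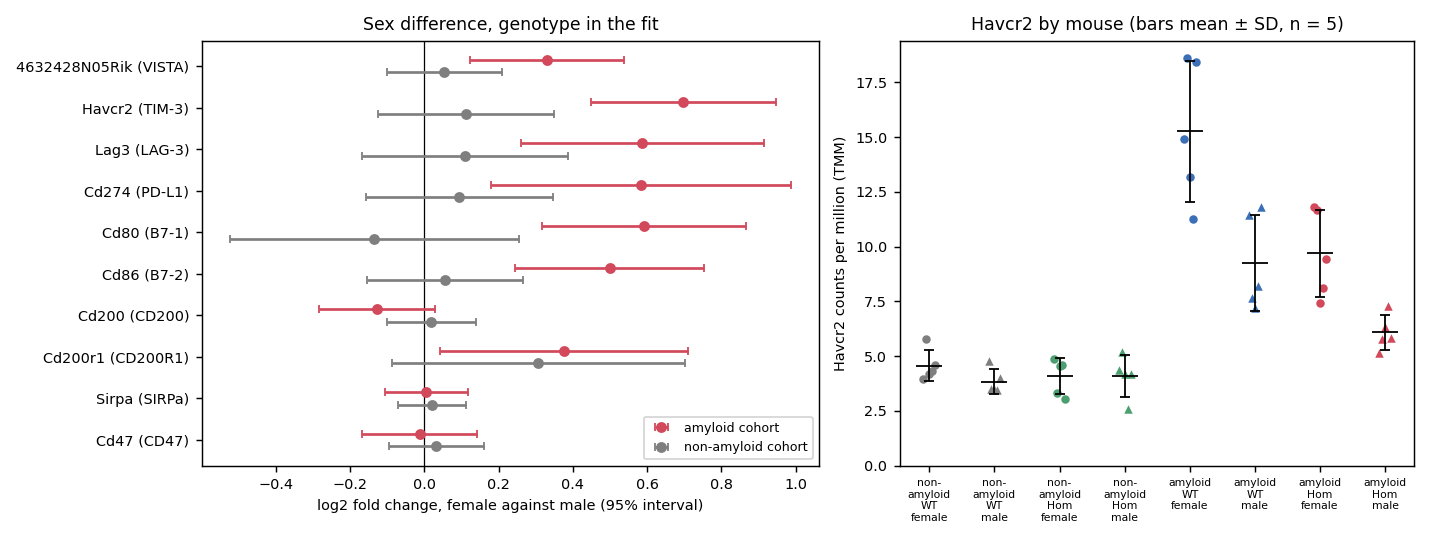
Left, log2 fold change of females against males (x axis) with 95% intervals for the 10 genes in the amyloid and non-amyloid cohorts; right, Havcr2 CPM (y axis, from 0) of each mouse by group and sex, with mean ± SD (n = 5). In the amyloid cohort Havcr2 lay at 0.70 with an interval of 0.45 to 0.95, and in the non-amyloid cohort at 0.11 with an interval of −0.12 to 0.35.

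In the non-amyloid cohort edgeR called no member by sex (background 0.122%), and 0 members had an unadjusted p under 0.05, nor did DESeq2 or limma-voom call one. Whether the sex difference differed between genotypes or cohorts was tested directly. Neither interaction called a gene with edgeR (0% of genes), DESeq2 or limma-voom, with 1124 and 1341 genes at an unadjusted p under 0.05. For Havcr2 the genotype-by-sex interaction in the amyloid cohort was −0.05 ± 0.24 (adjusted p = 0.963), with an interval from −0.56 to 0.46, and the sex-by-cohort interaction 0.58 ± 0.17 (adjusted p = 0.525). The sex difference of Havcr2 was therefore not shown to be particular to either genotype or to the amyloid cohort.

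Mice of the same cohort, genotype and sex also varied together in some members. After removal of the mean of each such group, Pearson's r was computed for all 45 pairs over 40 mice, with a permutation test within groups (100000 resamples, Benjamini-Hochberg over the 45 pairs). With all libraries 5 pairs passed by r, each with a positive r. The strongest was VISTA with Lag3, r = 0.75 and Spearman's rho = 0.77 (unadjusted p = 1e-05 for each, the smallest the permutations can give, adjusted p = 0.000450 for each), and 0.75 without the 2 mice farthest from the median of VISTA. In the same deviations VISTA had a median r of 0.63 with the 10 microglial markers (0.05 to 0.85). Lag3 also had a median of 0.63 with them (−0.10 to 0.80). Over all genes the medians were −0.02 and −0.01. The part of the markers in the r of this pair was not tested. Cd200 and Cd47, the 2 neuronal ligands, had r = 0.73 and rho = 0.67 (p = 3e-05 and 5e-05, permutation adjusted p = 0.000675 and 0.00112), and 0.63 without the 2 farthest mice. Havcr2 and Cd86 had r = 0.64 and rho = 0.62 (p = 0.0001 and 0.00021, permutation adjusted p = 0.00150 and 0.00315), and 0.63 without them.

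VISTA and Havcr2 had an r of 0.11 over the 40 mice (rho = 0.07, permutation p = 0.548 and 0.703, adjusted p = 0.748 and 0.811), which pooled values of opposite sign. In the 20 amyloid mice r was 0.53 (rho = 0.53, permutation adjusted p = 0.121 and 0.154), and in the 20 non-amyloid mice it was −0.53 (rho = −0.62, permutation adjusted p = 0.0636 and 0.0490). The difference between the cohorts was not tested. The other 2 pairs that passed were Cd80 with Cd200r1, r = 0.51 and rho = 0.52 (permutation p = 0.00262 and 0.00207, adjusted p = 0.0236 and 0.0233), and Havcr2 with Cd47, r = 0.50 and rho = 0.45 (permutation p = 0.00152 and 0.00445, adjusted p = 0.0171 and 0.0400). Without the 2 farthest mice they stood at 0.45 and 0.54. Within the cohorts, VISTA with Lag3 had r = 0.80 in the 20 amyloid and 0.65 in the 20 non-amyloid mice, and Cd200 with Cd47 0.77 and 0.66, all 4 past the threshold. Havcr2 with Cd86 passed in the amyloid mice (0.87) and not in the non-amyloid mice (0.33), a difference that was not itself tested. In the 20 non-amyloid mice alone Cd47 ran opposite to VISTA (r = −0.71, rho = −0.79, permutation adjusted p = 0.0377 and 0.00300) and to Lag3 (r = −0.74, rho = −0.80, permutation adjusted p = 0.0126 and 0.00300), with r of −0.78 and −0.66 without the 2 farthest mice. Over all 40 mice Cd47 had r = −0.45 and rho = −0.47 with VISTA (permutation adjusted p = 0.0839 and 0.0476) and r = −0.48 and rho = −0.47 with Lag3 (permutation adjusted p = 0.0691 and 0.0476), so that rho passed the threshold and r did not. The same held for Lag3 with Sirpa (r = 0.50, rho = 0.50, permutation adjusted p = 0.0691 and 0.0476). Without amyloid Hom replicate 19, 7 pairs passed by r, 2 of them negative: the 5 pairs above, Lag3 with Cd200 (r = −0.51, rho = −0.52, permutation adjusted p = 0.0479 and 0.0291) and Lag3 with Cd47 (r = −0.50, rho = −0.50, permutation adjusted p = 0.0479 and 0.0374). The members of a pair share library and depth, and the part of either in r was not tested.

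**Figure D5:**
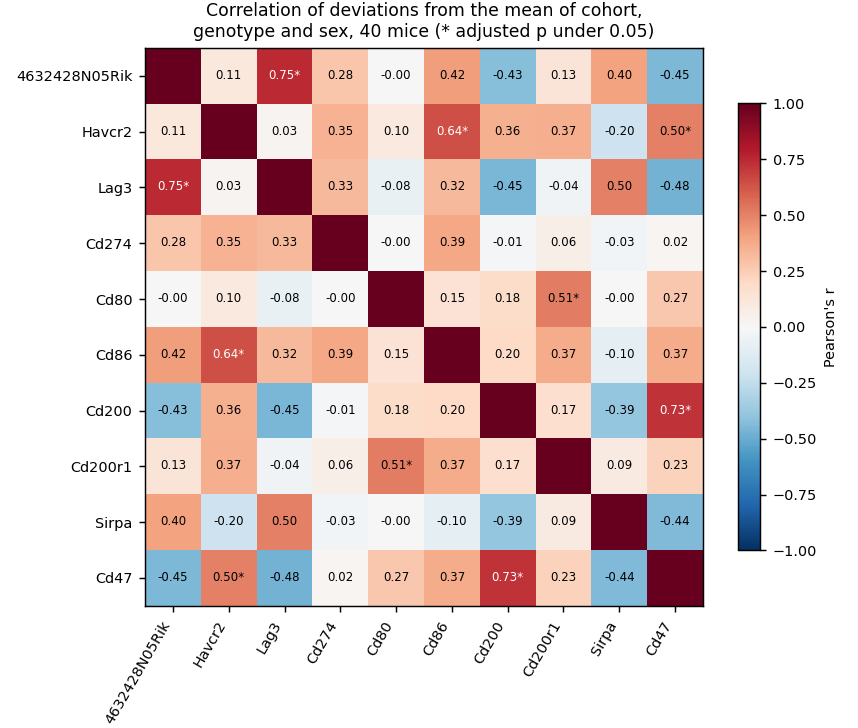
Pearson's r between members over 40 mice (colour and number, both axes the 10 genes) after removal of the mean of each cohort, genotype and sex; stars mark the 5 pairs with an adjusted p under 0.05. VISTA and Lag3 reached 0.75, Cd200 and Cd47 0.73, and Havcr2 and Cd86 0.64.

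The genes of the whole table most like each member in these deviations differed between members. They are described with r over the 40 mice, without a test, since they were the highest of 21252. VISTA was closest to Csf1r, the receptor of microglial survival signals (r = 0.85, rho = 0.85), Selplg (0.83, 0.85) and Itgb2, the β2 integrin (0.83, 0.85). Lag3 was closest to Laptm5 (0.86, 0.89), the lysosomal protease gene Ctsz (0.86, 0.85) and Rasal3 (0.84, 0.86). Havcr2 was closest to the endosomal receptor gene Tlr13 (0.87, 0.84), Maml2 (0.81, 0.82) and the SLAM family gene Cd84 (0.78, 0.84), and Cd86 to Fam46c (0.74, 0.76), the tyrosine kinase gene Btk (0.74, 0.75) and Lpcat2 (0.73, 0.67).

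Cd274 stood apart in its neighbours, which were the interferon-inducible GTPase genes Gbp2 (r = 0.89, rho = 0.80), Gbp6 (0.88, 0.82) and Iigp1 (0.83, 0.64). Leaving out the 2 mice farthest in Cd274 gave r of 0.79, 0.77 and 0.67. Cd200 was closest to Clvs2 (0.91, 0.92), the synaptic adhesion gene Lrrtm4 (0.90, 0.89) and Rragb (0.88, 0.86), and Sirpa to Slc7a8 (0.87, 0.81), Rab11fip4 (0.85, 0.77) and Mpped1 (0.84, 0.78). Cd47 was closest to AC107830.1 (0.94, 0.93), a pseudogene at chr16:49913193-49915008 within the span of Cd47, so their reads may not be separated, then to Ireb2 (0.92, 0.91). Cd80 was closest to Luzp1 (0.68, 0.67), Atp7a (0.64, 0.67) and 2010002M12Rik (0.63, 0.62), and Cd200r1 to Snx30 (0.73, 0.76), Ptpn3 (0.72, 0.66) and Kif5c (0.71, 0.70).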

How the data were processed

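The authors deposited 1 table of gene-level read counts, not normalised, for the 40 libraries, and no sample column was left unused (0). Poly-A libraries were made from 200 ng of total RNA with 15 PCR cycles. For the alignment to mm10, the submitters' processing notes name STAR 2.5.2b and featureCounts 1.5.1, whereas the study's methods name TopHat and Bowtie within MAP-RSeq. The strand setting and gene annotation are not given in the sources used here. The study's methods left out 1 amyloid Hom female, which they do not number, for a low gene count percentage and its strand check. All 40 libraries were kept here, and results are also given without amyloid Hom replicate 19. Whether that is the library left out is not stated. Without it VISTA was not called lower in amyloid Hom (−0.62). Reads are not deduplicated molecules, so intervals for shares cover counting error only.

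Groups came from the labels. A gene was kept when 4 or more libraries had 10 or more counts of it (21253 of 43346). Counts were scaled by TMM and tested with the edgeR quasi-likelihood test (edgeR 4.0.16, R 4.3.3), within a cohort for genotype, over all 40 libraries for cohort and interactions, and with genotype in the fit for sex. A call needed a p below 0.05 after Benjamini-Hochberg adjustment together with a log2 change of more than 0.25 in size. Library size and TMM factor gave CPM, and ratios and correlations used log2 CPM with a prior count of 2. DESeq2 1.42.0, limma-voom (limma 3.58.1), other scalings, filters, covariates and each library left out served as alternatives. The scripts were tested on simulated data. P-values measure the spread between mice.

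The members and gene lists were chosen with earlier results of these data known. Differences of members and listed genes by genotype and cohort are therefore given without p-values, and sex differences and correlations, which did not choose the members, are tested. All members were named. Up to 4 listed genes per list and comparison were named, lowest p first among those called, and the 3 genes with the highest r were named for each member. Some names that these rules and lists hold are not reported here.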

Additional observations from a re-analysis of the deposited data

Results flagged for a closer look

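In 4 of the 40 combinations of member and group, 1 mouse lay farther from the others than Dixon's test allows, and chance flags about 1 in 20 groups. Lag3 reached 6.78 CPM in non-amyloid WT replicate 1, with the next mouse at 4.53. Cd274 reached 20.3 CPM in amyloid WT replicate 32, with the next mouse at 8.81, and its differences without this mouse stand beside the results. Cd86 reached 3.11 CPM in non-amyloid WT replicate 15, with the next mouse at 2.40. Sirpa was lowest in non-amyloid Hom replicate 4, at 441.6 CPM, with the next mouse at 468.0.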

How the results depend on the processing

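For amyloid Hom against WT, 1 member was called, against 4 with DESeq2, 4 with sex in the fit, 4 with sex and without amyloid Hom replicate 19, 5 in one fit of all 40 libraries, 0 without the low-count filter, and 0 to 3 with single libraries left out. Of the wider checkpoint genes 1 was called, against 12, 8, 8, 14, 0 and 0 to 8 under the same settings. Over all genes the calls numbered 16, against 300 with DESeq2, 251 with sex, 612 in one fit and 8 without the filter. The genotype by cohort interaction called 0 members and 0 wider genes, against 2 and 2 with DESeq2, 2 and 2 with sex, 1 and 1 with sex and without replicate 19, and 0 to 2 and 0 to 3 with single libraries left out (all genes, 0 against 27 with DESeq2 and 12 with sex). For sex in the amyloid cohort 1 member was called, against 4 with DESeq2, 2 with limma-voom, 2 with library size alone, 0 without genotype in the fit and 1 to 3 with single libraries left out, and 2 wider genes, against 10, 1, 3, 0, and 0 to 7, and 0 without the filter (all genes, 51 against 251 with DESeq2, 26 without the filter and 17 without genotype). All genes by sex in the non-amyloid cohort numbered 26 against 47 with DESeq2, and non-amyloid Hom against WT 7 against 11. Correlated pairs numbered 5, against 21 when sex was not removed and 7, 2 of them negative, without amyloid Hom replicate 19. The direction changed for Sirpa by sex in the amyloid cohort (−0.0039 with DESeq2 and with median-of-ratios scaling, −0.0079 without the filter, −0.0282 to 0.0273 with single libraries left out), for Cd47 by sex (−0.0669 to 0.0208) and for the genotype by sex interaction of Havcr2 (−0.15 to 0.0358). The cause was not tested. No paired analysis was possible because the replicate numbers differ between the groups.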

Other observations

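Amyloid WT replicate 32, a female, had the highest Cd274 and also stood highest in the interferon-inducible genes most like it. Gbp2 was at 28.5 CPM there, with the next amyloid WT mouse at 12.96, Gbp6 at 21.8 against 5.02, and Iigp1 at 22.8 against 3.42. The same mouse was the highest of amyloid WT for VISTA, Lag3 and Cd86.

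Of the genes listed as T cell markers, Cd4 differed between the cohorts in the opposite direction to Cd3e and Cd8a. Cd4 lay far above both in level. The cells that made it were not tested, so the Cd4 difference is not read as one of T cells. Cd4 averaged 18.9 CPM in non-amyloid WT and 11.5 in amyloid WT, a log2 difference of −0.72 ± 0.19, and −0.63 ± 0.19 in Hom. Cd8a was higher in the amyloid cohort by 2.96 ± 0.55 in WT and by 2.49 ± 0.55 in Hom. Cd3e and Cd8a lay near the floor in non-amyloid WT, so their differences are a description.

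Beside Havcr2, 2 wider checkpoint genes were called higher in amyloid females, Cd84 (0.68 ± 0.14, edgeR adjusted p = 0.0430) and Cd22 (0.99 ± 0.19, adjusted p = 0.0315). Of all genes 0.202% were called higher in females there. Their calls were lost without any 1 of 14 and 12 libraries. The astrocyte gene Gfap was also called (0.83 ± 0.17, adjusted p = 0.0377), a call lost without any 1 of 12 libraries.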
